A study of Mus musculus with 24 samples.

Results

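The comparison asks which transcripts, if any, fluoxetine and lithium share in their effect on prefrontal cortex of mice heterozygous for the Dyrk1a I48X allele. The 12 libraries from drug-treated heterozygotes (HT), 6 per drug and each drug with equal weight, were compared with the 6 libraries from HT mice on vehicle, with sex as a block. These 18 libraries are part of a series of 24; the remaining 6 came from wild-type (WT) mice on vehicle and serve only as a second reference. Every arm held 3 female and 3 male libraries, all taken at postnatal day 40. All were of the C57BL/6J strain, and libraries were made from polyadenylated RNA with a strand-keeping TruSeq kit. Dose, route and length of treatment were not stated in the sources used here. Nor do the labels tie each library to its own animal, and p-values then cover only the spread among these libraries, which may be technical.

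Dyrk1a is a dosage-sensitive protein kinase of brain development that acts on NFAT signalling, splicing and transcription factors. Fluoxetine blocks the serotonin transporter and so raises extracellular serotonin, while lithium inhibits glycogen synthase kinase 3 and inositol monophosphatase. Both are used in mood disorders. Drug exposure in cortex is known to reach immediate early genes, whose transcripts appear within minutes of neuronal activity without new protein synthesis, and slower programmes of growth factor, chaperone and metabolic genes.

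Levels are given as normalised read counts from the authors' table and differences as log2 fold changes ± standard error (SE), both drugs weighted equally, from limma on log2(count + 1). All 6 lithium libraries and HT fluoxetine female 3 carry the batch label P40_L2, and every vehicle library and the other 5 fluoxetine libraries carry P40_L1. Lithium and batch therefore cannot be told apart except through that fluoxetine library. Libraries held between 24133344 and 35940460 recovered reads. Markers of neighbouring regions also differed between libraries. The summed level of 14 olfactory bulb genes ran from 6381 to 37368 in HT vehicle, 6689 to 49400.5 in HT fluoxetine and 5374 to 46677 in HT lithium, with 5 HT libraries (fluoxetine female 1 and male 1, lithium male 1, vehicle female 2 and male 3) scored as bulb-high. The summed level of 12 striatal projection neuron genes reached 45458 in HT vehicle, from HT vehicle male 1, against at most 16895 in HT fluoxetine and 13925 in HT lithium. In bulk tissue, fewer cells of a type and less RNA per cell cannot be told apart.

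Dyrk1a itself (ENSMUSG00000022897, chromosome 16, 94570010 to 94695517 on GRCm38) ran from 2088 to 2349 (median 2169) in WT, 2254 to 2431 (median 2365) in HT vehicle, 2353 to 2589 (median 2457) in HT fluoxetine and 2254 to 2584 (median 2454) in HT lithium. The arms overlapped, and the libraries labelled HT were not below WT at the level of total transcript. Its either-drug fold change was 0.06 ± 0.034, with an unadjusted limma p of 0.0799 and an adjusted p of 1.

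Promoters of 3 genes are shown because these genes carry the activity-linked and hormone-linked values below: Btg2 was lower and Nr4a3 higher with both drugs, and Errfi1 had the same fold change under both. The windows come from RefSeq on GRCm38.p6, 250 bases before to 50 after the gene's start. Capitals mark the palindromic cAMP response element TGACGTCA, at position -166 relative to the start in Btg2 (chr1:134079106-134079405, minus strand) and at -51 in Errfi1 (chr4:150854820-150855119, plus strand, the second of its RefSeq starts). The Nr4a3 window (chr4:48045055-48045354, plus strand) holds none of the letters searched.
Btg2: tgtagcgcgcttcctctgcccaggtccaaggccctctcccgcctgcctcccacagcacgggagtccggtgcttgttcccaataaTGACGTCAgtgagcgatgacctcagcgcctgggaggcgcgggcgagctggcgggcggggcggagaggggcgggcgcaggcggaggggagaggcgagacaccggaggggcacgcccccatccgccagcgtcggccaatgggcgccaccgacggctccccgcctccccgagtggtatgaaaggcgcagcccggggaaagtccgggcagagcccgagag
Nr4a3: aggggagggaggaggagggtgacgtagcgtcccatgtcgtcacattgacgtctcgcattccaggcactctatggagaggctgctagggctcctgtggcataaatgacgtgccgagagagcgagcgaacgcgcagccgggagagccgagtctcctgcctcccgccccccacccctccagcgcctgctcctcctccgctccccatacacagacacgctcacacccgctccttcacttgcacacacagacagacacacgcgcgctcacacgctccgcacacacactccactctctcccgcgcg
Errfi1: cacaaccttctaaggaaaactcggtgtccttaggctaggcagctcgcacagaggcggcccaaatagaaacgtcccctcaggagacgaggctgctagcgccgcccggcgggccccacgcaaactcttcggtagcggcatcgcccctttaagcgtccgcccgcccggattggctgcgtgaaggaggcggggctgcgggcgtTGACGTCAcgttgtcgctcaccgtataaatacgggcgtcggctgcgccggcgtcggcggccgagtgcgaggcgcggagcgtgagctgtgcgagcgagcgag

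The 4 motifs were searched on both strands in the promoters of the 24 genes named first below, of which 19 matched RefSeq entries with 23 promoters in all. The element TGACGTCA was in 1 of these (Btg2), against 588 of all 32851 promoters (1.79%). The E-box CACGTG was in 2 of the 23, both of Tceal3, against 2349 of all 32851 promoters (7.15%). The D-box TTATGTAA (0.938% of all promoters) and the glucocorticoid response element, an inverted repeat of AGAACA with 3 bases between (0.00913%), were in none of the 23. A match describes letters in the window and not a bound site.

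With all 18 HT libraries, limma called no transcript for either drug or for both. The genes ranked highest for both drugs, described below, included the nuclear receptor Nr4a3, the protocadherin Pcdhga4 and the ubiquitin-conjugating enzyme Ube2t. Of 16811 genes tested, 0 passed an adjusted p of 0.05 for either drug (0% called), and the smallest adjusted p was 0.215. The unadjusted limma p was under 0.05 for 543 genes (3.23%), 280 higher (1.67%) and 263 lower (1.56%). The edgeR quasi-likelihood test on recovered reads also called 0 (541 at an unadjusted p under 0.05), and DESeq2 called 5: Gm12671, Gm28048, Pcdhga4, Btg2 and P4ha1.

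The test for both drugs asked for the same sign under each and used the larger of the 2 p-values, which holds its level whatever dependence the shared vehicle libraries create. It called 0 genes in limma (0% called, smallest adjusted p 1), 0 in edgeR and 0 in DESeq2. Without the 5 bulb-high HT libraries limma called 1, the pseudogene Gm12671, lower with both drugs (adjusted p 3.12e-05). The libraries left out there included HT fluoxetine female 1 and male 1, the only drug libraries in which Gm12671 was not listed at 0. At an unadjusted larger p under 0.05, limma counted 104 genes (0.619%), 48 higher (0.286%) and 56 lower (0.333%), and edgeR 94. Fluoxetine alone called 0 genes (0% called, 877 or 5.22% at an unadjusted p under 0.05) and lithium alone 1 (0.00595%), the gene model Gm28048, with 441 (2.62%) at an unadjusted p under 0.05. The median SE was 0.0905 for either drug and 0.104 for a single drug, and the median fold change over all genes was -0.00 for either drug. The 24 genes below are the 12 higher and the 12 lower protein-coding genes with the smallest larger p, so their direction under both drugs was set by the choice and carries no test.

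Among the 12 higher genes the largest values belonged to Slfn3, a Schlafen family gene linked to growth control in lymphocytes, and Nr4a3, an orphan nuclear receptor induced by neuronal activity. Slfn3 (ENSMUSG00000018986, chromosome 11, 83191330 to 83215154) was a low transcript at 5.41 to 10.2 (median 9.46) in HT vehicle, 11.3 to 16.6 (median 13.2) in HT fluoxetine and 11.2 to 17.4 (median 16.2) in HT lithium. All 12 drug libraries lay above all 6 vehicle libraries, an arrangement found in 2 of 16811 genes (0.0119%), both higher. Among so many genes a few such separations can arise by chance, and whether this count exceeds chance was not tested. The Slfn3 fold change was 0.65 ± 0.14 for either drug, 0.56 ± 0.16 for fluoxetine and 0.75 ± 0.16 for lithium (adjusted p 0.506, limma). WT libraries ran from 11.6 to 19.5 (median 13.4), so the HT vehicle libraries were low against WT as well. Slfn3 was chosen for a gap between vehicle and drugs, which favours low vehicle values. Slfn3 has close paralogues in the Slfn cluster, and the assignment of reads shared between them is not stated in the sources.

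Lrrc75a (ENSMUSG00000046417, chromosome 11, 62604884 to 62648523), a leucine-rich repeat gene, was the other gene without overlap. It stood at 417 to 467 (median 448) in HT vehicle, 473 to 503 (median 491) in HT fluoxetine and 486 to 547 (median 503) in HT lithium. The step was small but tight, with a fold change of 0.17 ± 0.037 (adjusted p 0.506, limma). With WT at 439 to 527 (median 484), most drug libraries lay inside the WT range and the either-drug difference from WT was 0.04 ± 0.036.

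Nr4a3 (ENSMUSG00000028341, chromosome 4, 48045153 to 48086447) ran from 498 to 743 (median 674) in HT vehicle, 897 to 1343 (median 1038) in HT fluoxetine and 513 to 1486 (median 940.3) in HT lithium. Every fluoxetine library and 5 of 6 lithium libraries exceeded the highest vehicle library, and HT lithium female 2 lay within the vehicle range. The either-drug fold change was 0.61 ± 0.16 (adjusted p 1, limma), with 0.32 ± 0.19 in females and 0.91 ± 0.19 in males. WT spanned 524 to 1738 (median 776), wider than any HT arm, and overlapped all of them. With a batch term the value was 0.33, and fluoxetine against vehicle within P40_L1 alone gave 0.64.

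Klf10 (ENSMUSG00000037465, chromosome 15, 38291463 to 38300706), a zinc finger factor induced early by TGF-beta, had nearly equal values under the drugs. Its level was 679 to 1066 (median 788) in HT vehicle, 912 to 1353 (median 1088) in HT fluoxetine and 723 to 1359.6 (median 1112) in HT lithium. The arms overlapped, with 7 of 12 drug libraries above the highest vehicle library. Fold changes were 0.41 ± 0.14 for fluoxetine and 0.44 ± 0.14 for lithium, and 0.43 ± 0.12 for either (adjusted p 1, limma). With a batch term the either-drug value was 0.24.

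Pcdhga4 (ENSMUSG00000103677, chromosome 18, 37685210 to 37841873) ranked first by the larger p (0.00159). It encodes a gamma-protocadherin, a cell adhesion protein of neuronal surface identity. HT vehicle stood at 398 to 514 (median 473), HT fluoxetine at 465 to 610.4 (median 564) and HT lithium at 556 to 621 (median 591). All drug libraries but HT fluoxetine female 3 were above the highest vehicle library. The fold change was 0.31 ± 0.061 (adjusted p 0.506, limma), and DESeq2 called it for either drug. Genes of this cluster share their 3′ exons, so its count is uncertain.

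The other transcriptional and signalling members had smaller values. Zfp667, a zinc finger gene, was 0.24 ± 0.052, with every drug library but 1 above the highest vehicle library. Pprc1, a coactivator related to PGC-1 that acts on mitochondrial genes, was 0.15 ± 0.04, also with 11 of 12 above. Phf13, a reader of methylated histones, was 0.18 ± 0.052 and the kinase-like gene Stk40 0.20 ± 0.056. Fbxo46, an F-box gene, was 0.19 ± 0.055, and Wdr3, a factor of small ribosomal subunit assembly, was 0.11 ± 0.035. Mc5r, a melanocortin receptor, was low at 14.4 to 28.6 (median 24.6) in HT vehicle and 23.9 to 44.3 (median 35.6) and 26.4 to 42.4 (median 34.2) with fluoxetine and lithium, a fold change of 0.57 ± 0.17.

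**Figure D1:**
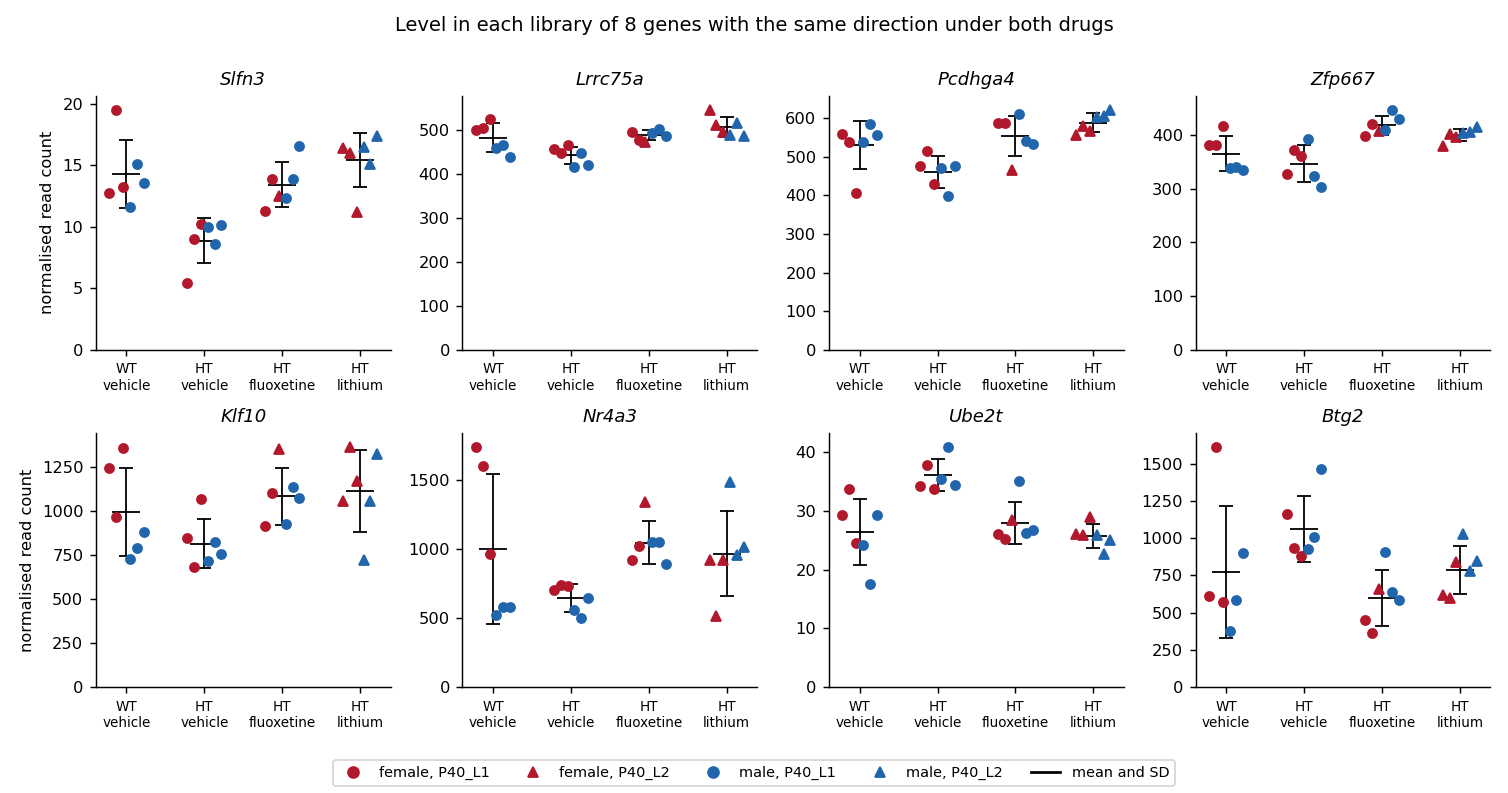
Normalised read count (y axis, from 0) in each library for 8 of the 24 genes, by arm (x axis, 6 libraries each); colour gives sex, triangles mark batch P40_L2, and bars give mean and SD. The 12 drug libraries lie above the 6 HT vehicle libraries in Slfn3 and Lrrc75a, and the arms overlap in Klf10, Nr4a3 and Btg2.

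Btg2 (ENSMUSG00000020423, chromosome 1, 134075170 to 134079120), one of the 12 lower genes, is an antiproliferative early response gene. Its level was 879 to 1464 (median 971) in HT vehicle, 364 to 905 (median 613) in HT fluoxetine and 599 to 1028 (median 811) in HT lithium. Of the drug libraries, 10 of 12 were below the lowest vehicle library, and HT lithium male 1 and HT fluoxetine male 1 lay within the vehicle range. Fold changes were -0.86 ± 0.16 for fluoxetine, -0.44 ± 0.16 for lithium and -0.65 ± 0.14 for either (adjusted p 0.506, limma). The difference between the drugs, 0.42 ± 0.16, did not pass its own test (adjusted p 0.907, limma). WT ran from 374 to 1609 (median 598), overlapping the drug arms, and the either-drug difference from WT was -0.05 ± 0.22.

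Ube2t (ENSMUSG00000026429, chromosome 1, 134962565 to 134974162), a ubiquitin-conjugating enzyme of the Fanconi anaemia DNA repair pathway, ran from 33.7 to 40.8 (median 34.9) in HT vehicle. It was at 25.1 to 35 (median 26.4) in HT fluoxetine and 22.6 to 29 (median 25.8) in HT lithium. All drug libraries but HT fluoxetine male 1 were below the lowest vehicle library. The either-drug fold change was -0.42 ± 0.094 (adjusted p 0.622, limma). WT stood at 17.5 to 33.7 (median 26.9), so here too HT vehicle was the arm that stood apart, and the drug arms differed from WT by 0.04 ± 0.11. The gene was chosen for a gap between vehicle and drugs, which favours a vehicle arm that stands apart.

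Pkdrej (ENSMUSG00000052496, chromosome 15, 85814670 to 85821734), a polycystin family gene best known from sperm, had the smallest larger p of the lower genes (0.00375). It was at 46 to 59.8 (median 52.7) in HT vehicle, 34 to 45.9 (median 39.8) in HT fluoxetine and 33.1 to 50.6 (median 39.3) in HT lithium, a fold change of -0.37 ± 0.094 (adjusted p 1, limma). WT stood at 47 to 55.8 (median 51.9), level with HT vehicle, and the either-drug difference from WT was -0.35 ± 0.089. In this gene, unlike Slfn3 and Ube2t, the means of the drug arms were lower than those of both references.

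Unc13c, a presynaptic vesicle priming gene, was at 563 to 1322 (median 741) in HT vehicle, 455 to 609 (median 579) in HT fluoxetine and 459.6 to 693 (median 536) in HT lithium. The highest vehicle value came from HT vehicle male 1, the library with the most striatal transcript. Its fold change of -0.49 ± 0.14 moved to -0.33 at the least when 1 library was left out and to -0.41 without the 3 HT libraries high in Drd2 or Ttr. WT spanned 579 to 910.2 (median 746), and the either-drug difference from WT was -0.42 ± 0.14. The part of striatal tissue in this difference was not tested.

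The remaining lower genes were mostly scarce transcripts. Pabpc4l, a poly(A)-binding protein-like gene, was -0.60 ± 0.16, and B3gnt4, an N-acetylglucosaminyltransferase gene, -0.66 ± 0.20. Ccdc122 was -0.40 ± 0.11, the zinc finger gene Zfp867 -0.34 ± 0.11 and Rinl, a Ras and Rab interactor-like gene, -0.35 ± 0.11. Mxra7 was -0.24 ± 0.071, and Parvg, an actin adaptor of blood-derived cells, -0.27 ± 0.092. Tceal3, an X-linked elongation factor-like gene, had a level of 3016 to 3725 (median 3298) in HT vehicle, 2687 to 3199 (median 3034) in HT fluoxetine and 2853 to 3179 (median 2992) in HT lithium. Its fold change was -0.14 ± 0.046, and -0.03 with a batch term.

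The cut at 12 had no natural gap: the larger p of the last higher gene was 0.0146 and that of the first left out 0.0164, and for the lower genes 0.0226 and 0.023. The difference between lithium and fluoxetine was not called for any of the 24 (limma adjusted p 0.907 to 0.996). Over all genes that difference called 0 (0% called, smallest adjusted p 0.0907, 854 or 5.08% at an unadjusted p under 0.05), as did edgeR (835), while DESeq2 called 23. In the P40_L1 libraries alone, where fluoxetine and vehicle share a batch, fluoxetine had the same direction as in the whole arm for 12 of 12 higher and 12 of 12 lower genes. These are 5 of the 6 fluoxetine and all 6 vehicle libraries that chose the genes, so the direction was close to fixed, and sizes such as -0.94 for Btg2 and 0.32 for Pcdhga4 are given as values only. No such comparison exists for lithium, which has no library in P40_L1.

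**Figure D2:**
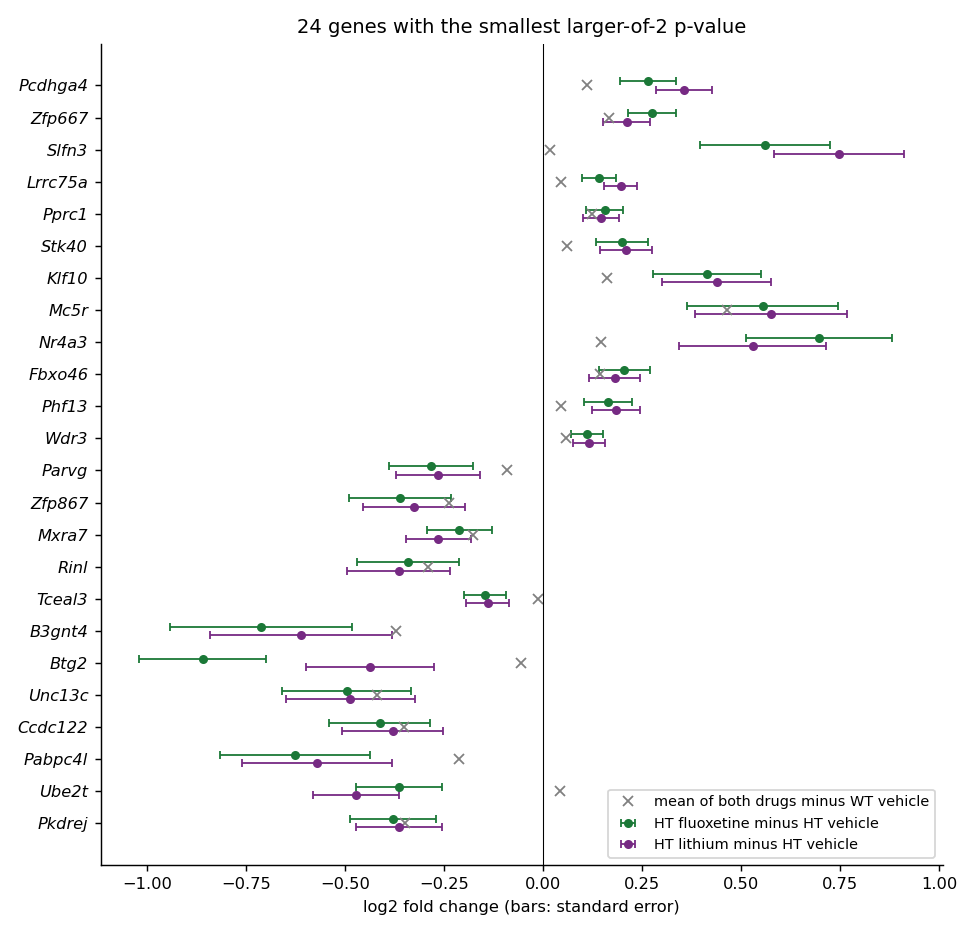
Log2 fold change (x axis) against HT vehicle for fluoxetine (green) and lithium (purple) with SE bars, and of both drugs' mean against WT vehicle (grey crosses), for the 24 genes (y axis). The crosses lie near 0 for Slfn3 (0.02), Tceal3 (-0.01) and Ube2t (0.04) and near the drug values for Pkdrej (-0.35).

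Because both drug arms were set against the same 6 HT vehicle libraries, values against WT vehicle are given beside them. The same 12 drug libraries that chose the genes enter this comparison too, which favours the chosen direction, so the counts are a description. Against WT, the mean of both drugs had the same direction for 12 of 12 higher and 11 of 12 lower genes. The difference was at least 0.5 times as large as against HT vehicle for 5 higher and 7 lower genes. Mc5r (0.47 ± 0.18), Zfp667 (0.17 ± 0.054) and Pprc1 (0.12 ± 0.04) kept most of their size, as did Unc13c, Pkdrej and Ccdc122 (-0.35 ± 0.13). Slfn3 (0.02 ± 0.14), Ube2t and Tceal3 (-0.01 ± 0.042) were close to the WT level under the drugs, and their vehicle libraries differed from WT by -0.64 ± 0.16, 0.46 ± 0.13 and 0.13 ± 0.049. The same HT vehicle libraries also chose the genes, which favours such gaps between vehicle and WT, so these too are descriptions. WT differs from the drug arms in genotype as well as treatment, which these values do not separate.

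The sexes give comparisons of the drugs that share no library: fluoxetine in females with lithium in males, and fluoxetine in males with lithium in females. The first pair still shares part of a batch difference from vehicle, as HT fluoxetine female 3 and the lithium libraries carry P40_L2. All fluoxetine males carry P40_L1, as do the vehicle libraries. The part of batch in the values of either pair was not tested. In the first pair, 10382 of 16811 genes (61.8%) had the same sign, and across genes Pearson's r was 0.34 and Spearman's rho 0.30. In the second, 7356 genes (43.8%) had the same sign, with r of 0.14 and a Spearman rho of -0.12. Genes are not independent replicates, and these values are descriptions. At an unadjusted p under 0.05 in both comparisons, the first pair held 28 genes of the same sign and 4 of opposite sign, the second 14 and 15.

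The sign shares turned with single libraries. The first share went from 61.8% to 42.7% without HT lithium male 1. The second went from 43.8% to 64.0% without HT fluoxetine male 1, to 54.7% without HT vehicle female 2 and to 55.6% without HT vehicle male 2. It was 53.0% without the 5 bulb-high HT libraries.

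Several of the 24 genes were among those with an unadjusted p under 0.05 in both comparisons of a pair. The 24 were chosen for a small p under both drugs in these same libraries, which favours such values. They are therefore descriptions and no independent test. For Mc5r, fluoxetine in females was 0.75 and lithium in males 0.61. Slfn3 gave 0.60 and 0.72 in the same pair, and Ube2t -0.40 and -0.57. Nr4a3 gave 0.58 and 0.998 there, and 0.82 for fluoxetine in males beside 0.06 for lithium in females. In the other pair, fluoxetine in males and lithium in females, Klf10 was 0.45 and 0.48, Btg2 -0.67 and -0.54, and Lrrc75a 0.21 and 0.18. Outside the 24, and chosen after its values were seen, Tbx3, a T-box transcription factor, gave 0.59 and 0.43 for fluoxetine in females and lithium in males.

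**Figure D3:**
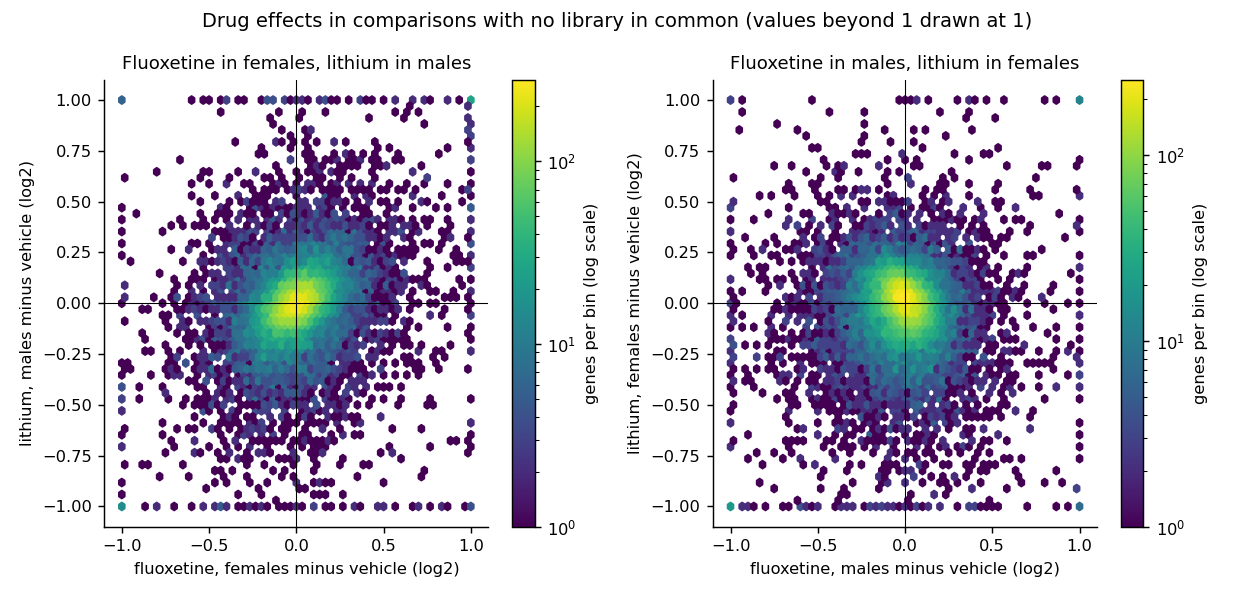
Each gene's log2 fold change for fluoxetine in one sex (x axis) and lithium in the other (y axis), as the number of genes per bin on a log colour scale; values beyond 1 are drawn at 1. The first pair leans along the diagonal (Pearson's r 0.34, Spearman's rho 0.30), and the second has r 0.14 and rho -0.12.

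The sex difference in the either-drug effect was called for 0 genes in limma (0% called, smallest adjusted p 1, 145 genes or 0.863% at an unadjusted p under 0.05) and 0 in edgeR (139), and for 1 in DESeq2, the gene model Gm7334. Its median SE of 0.186 was larger than that of the pooled effect. Of the genes named above, Nr4a3 and Unc13c had the widest gap between the sexes, with Unc13c at -0.20 ± 0.18 in females and -0.78 ± 0.18 in males, and neither gap was called.

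The median of the immediate early genes was -0.05 in females (-0.02 with fluoxetine and -0.07 with lithium) and 0.25 in males (0.16 and 0.38), and this difference between the sexes was not tested for the list. Over both sexes, of 24 tested, 18 had an either-drug value above 0 and 6 below, with a median of 0.14, beside 48.8% of all genes above 0. None was called in limma, and DESeq2 called Btg2. Both drugs were above vehicle for 14 members and both below for 2, where 28.9% and 29.9% of all genes were, figures that include the vehicle libraries the drugs share. The 3 with the smallest p were Btg2, Nr4a3 and Klf4, a Kruppel-like factor at 0.52 ± 0.10 with fluoxetine and 0.00 ± 0.10 with lithium. Chosen after their values were seen, Npas4, an activity-dependent factor of inhibitory synapse regulation, was -0.84 with fluoxetine and -0.20 with lithium, and Fos -0.35 and 0.10. The list's median was -0.07 with a batch term, so its direction turned there, and 0.09 without HT vehicle male 2. Its summed level ran from 31610 to 46929 in HT vehicle, 28601 to 43826 in HT fluoxetine and 33559 to 53433 in HT lithium, and from 21604 to 60572 in WT.

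Later activity genes and neurotrophins had 14 of 20 members higher and 6 lower, with a median of 0.03. Pcsk1, a prohormone convertase, was 0.14 ± 0.082 and -0.03 with a batch term, Bdnf 0.22 ± 0.15 and the peptide gene Crh 0.23 ± 0.19. Among Kruppel-like factors, 8 of 14 were higher and 6 lower. Klf11 was the member with the smallest p and was lower, at -0.32 ± 0.06 with fluoxetine and -0.11 ± 0.06 with lithium. Its level ran from 212 to 232 (median 223) in HT vehicle, 156 to 193 (median 180.4) in HT fluoxetine and 190.1 to 217 (median 205) in HT lithium. Fluoxetine libraries all lay below the vehicle range, lithium libraries only in part. Klf10 and Klf11 are close relatives that were on opposite sides of vehicle.

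Chaperone genes stood slightly above vehicle in most members. Of 25 endoplasmic reticulum stress genes, 22 were higher and 3 lower (median 0.05), and both drugs were above vehicle for 17. The median was 0.07 with fluoxetine and 0.02 with lithium. Among all genes tested, 48.8% were higher for either drug and 28.9% with both drugs, figures that include the shared vehicle libraries. Xbp1, the transcription factor of the unfolded protein response, was at 1356 to 1525 (median 1443) in HT vehicle, 1519.9 to 1641 (median 1617) in HT fluoxetine and 1355 to 1628 (median 1556) in HT lithium. The fluoxetine libraries overlapped vehicle only at its upper end, and lithium spread over both ranges. Xbp1 was 0.13 ± 0.036 for either drug (adjusted p 1, limma), and Hspa5, the chaperone BiP, 0.10 ± 0.04. Trib3, a stress-induced pseudokinase, went the other way at -0.41 ± 0.16.

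Of 20 heat shock genes, 18 were higher and 2 lower (median 0.06), with both drugs above vehicle for 15. Their median was 0.05 with fluoxetine and 0.05 with lithium. Dnajb5, a co-chaperone, was 0.18 ± 0.058, Chordc1, an HSP90 co-chaperone, 0.14 ± 0.056 and the small heat shock gene Hspb8 0.14 ± 0.075. None of the 45 chaperone and stress members was called in limma. The medians were 0.06 and 0.08 with a batch term, and 0.04 and 0.05 without the bulb-high libraries. The summed levels overlapped between arms. Median heat shock sums were 151682 in HT vehicle, 151036 in HT fluoxetine and 153817 in HT lithium. Median endoplasmic reticulum sums were 59031, 61575 and 59225 in the same order. The heat shock sum ran from 133946 to 154676 in HT vehicle, 138209 to 178394 in HT fluoxetine and 137348 to 159752 in HT lithium, and the endoplasmic reticulum sum from 56451 to 61295, 58716 to 66182 and 57593 to 62869.

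Glucocorticoid-induced genes were above vehicle in 20 of 21 members, 13 of them with both drugs, at a median of 0.08. Fluoxetine held the larger share, with a median of 0.13 against 0.03 for lithium. Errfi1, a feedback inhibitor of the EGF receptor, was the member with the most even response. It stood at 687 to 806 (median 741) in HT vehicle, 771 to 869 (median 810.1) in HT fluoxetine and 739 to 909 (median 814) in HT lithium, and its fold change was 0.13 ± 0.053 with fluoxetine and 0.13 ± 0.053 with lithium. Drug and vehicle libraries overlapped, and the either-drug adjusted p was 1 in limma. Per1, which also belongs to the clock list, was 0.24 ± 0.083, and Gjb6, an astrocyte connexin, 0.14 ± 0.058. The list's median was 0.01 in females and 0.20 in males, a difference that was not tested. It was 0.03 without HT vehicle male 2 and 0.05 without HT vehicle male 3.

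Clock genes were split, with 11 of 19 higher and 8 lower, and a median of 0.01. The repressors Per1, Per2 and Bhlhe40 were the members with the smallest p. Per2 ran from 1381 to 1610.4 (median 1468) in HT vehicle, 1797 to 2197 (median 2026) in HT fluoxetine and 1387 to 1875 (median 1633) in HT lithium. All fluoxetine libraries were above all vehicle libraries and lithium overlapped both, with fold changes of 0.43 ± 0.069 and 0.12 ± 0.069. Bhlhe40 was 0.37 ± 0.10 with fluoxetine and 0.16 ± 0.10 with lithium. Per1 was 0.28 ± 0.10 with fluoxetine and 0.20 ± 0.10 with lithium. For Per2 and Bhlhe40 the fluoxetine value was the larger, and the lithium value was within 2 SE of 0. The hour of collection is not stated in the sources.

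Hypoxia-responsive genes had 17 of 25 members higher and 8 lower (median 0.04). P4ha1, a collagen prolyl hydroxylase, was at 870.4 to 994 (median 914) in HT vehicle, 1110.1 to 1201 (median 1153) in HT fluoxetine and 906 to 1088 (median 966) in HT lithium. Fluoxetine did not overlap vehicle, while lithium did. Its either-drug value of 0.19 ± 0.041 joined 0.31 ± 0.047 for fluoxetine and 0.07 ± 0.047 for lithium, so an either-drug contrast can rank high with 1 drug. Slc2a1, the glucose transporter of the blood-brain barrier, was 0.21 ± 0.07 and the glycolytic regulator Pfkfb3 0.08 ± 0.045.

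Genes next to the drugs' own targets did not stand apart from all genes. Of 19 tested serotonin genes, 8 were higher and 11 lower (median -0.02), and 0 reached an unadjusted limma p of 0.05. Over all genes 543 of 16811 (3.23%) did, so few that 0 of 19 does not set the list apart. Tph1, a serotonin synthesis enzyme, was scarce, at 10.2 to 19.9 (median 17.5) in HT vehicle and -0.41 ± 0.23, and S100a10, a serotonin receptor adaptor, 0.13 ± 0.10. Maob, a monoamine oxidase, was 0.09 ± 0.075. Of 24 genes for enzymes that lithium inhibits and for inositol supply, 14 were higher and 10 lower (median 0.01). Marcksl1 and Marcks, protein kinase C substrates, were 0.20 ± 0.15 and 0.14 ± 0.12, and Pgm1, a phosphoglucomutase, -0.05 ± 0.047.

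Wnt and beta-catenin targets, which lie downstream of glycogen synthase kinase 3, had 14 of 26 members higher and 12 lower (median 0.01). Ccnd2, a cyclin, was 0.20 ± 0.085 and nearly the same with each drug, 0.19 ± 0.10 and 0.20 ± 0.10. Its level ran from 2394 to 2905 (median 2575) in HT vehicle, 2463 to 3340.4 (median 3199.7) in HT fluoxetine and 2458 to 3593 (median 2966) in HT lithium, and all arms overlapped. Tcf7l1 was 0.23 ± 0.13 and Lef1 0.17 ± 0.12, both transcription factors of the pathway. Genes of cAMP and CREB signalling had 11 of 26 higher and 15 lower (median -0.02). Pde4a, a cAMP phosphodiesterase, was 0.12 ± 0.041 and Creb1 0.13 ± 0.061. Pde10a, enriched in striatum, was -0.58 ± 0.26, with HT vehicle male 1 at 7853.

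Calcineurin, NFAT and DYRK family genes, the setting in which Dyrk1a acts, had 10 of 19 members higher and 9 lower (median 0.02). Nfatc2 was -0.24 ± 0.11 and nearly equal under the drugs (-0.23 ± 0.12 and -0.25 ± 0.12). HT vehicle male 1 held its highest level, 505, and the other vehicle libraries 311 to 370.0. Dyrk3 was 0.16 ± 0.13. In the Bcl2 family list 11 of 19 were higher and 8 lower (median 0.02), led by the survival factor Mcl1 (0.17 ± 0.074). Autophagy and lysosome genes were 18 higher and 12 lower (median 0.01) and cholesterol synthesis genes 14 higher and 9 lower (median 0.02). Interferon response genes were 11 higher and 10 lower, and chromatin and BAF complex genes 19 higher and 9 lower, each with a median of 0.01.

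Nuclear-encoded oxidative phosphorylation genes were the largest list and were not shared. Of 74 members, 13 were higher and 61 lower for either drug, with a median of -0.03, but the median was -0.11 with fluoxetine and 0.03 with lithium. Only 12 members were below vehicle with both drugs and 3 above. Ndufs3, a complex I subunit, was at 2266 to 2467 (median 2295) in HT vehicle, 1863 to 2058 (median 1988) in HT fluoxetine and 2171 to 2406 (median 2328) in HT lithium. Fluoxetine lay wholly below vehicle and lithium overlapped it. Without the libraries high in Drd2 or Ttr the list's median was 0.00. Cytosolic ribosomal protein genes had 11 of 52 higher and 41 lower (median -0.03), with -0.07 for fluoxetine and 0.02 for lithium. Rpl14 was -0.12 ± 0.062 and turned to 0.04 with a batch term, and the ribosomal median to 0.01 without the libraries high in Drd2 or Ttr.

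Of 13 mitochondrially encoded transcripts, 8 were higher and 5 lower (median 0.01), and mt-Co2 stood out. It ran from 99082 to 118964 (median 112337) in HT vehicle, 32459 to 87185 (median 53898) in HT fluoxetine and 56780.0 to 171263 (median 75184) in HT lithium. All fluoxetine libraries and 4 of 6 lithium libraries were below the lowest vehicle library, and the other lithium libraries were above the highest. Its fold change was -1.06 ± 0.30 with fluoxetine and -0.33 ± 0.30 with lithium (either-drug adjusted p 1, limma). The other members named by p were smaller in size and lay on both sides of vehicle: mt-Atp6 was 0.28 ± 0.27 and mt-Atp8 -0.12 ± 0.14. Nuclear copies of mitochondrial genes can share their reads, so these counts are uncertain.

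Synaptic genes were close to evenly split. Glutamate receptor and postsynaptic genes had 16 of 32 higher and 16 lower (median -0.00), GABA-A receptor and inhibitory synapse genes 8 of 20 higher and 12 lower (median -0.03), and presynaptic release genes 10 of 26 higher and 16 lower (median -0.02). The GABA-A subunits Gabrg1 and Gabra2 were 0.19 ± 0.087 and 0.16 ± 0.083. None was called in limma, and the largest sizes among the glutamate and presynaptic members named by p were those of Grin2a, an NMDA receptor subunit (-0.10 ± 0.13), and Cplx2, a complexin (-0.15 ± 0.21).

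Members of some cell type lists lay mostly on one side of vehicle. All 14 microglia markers were below vehicle for either drug, 10 of them with both, at a median of -0.07 (-0.04 with fluoxetine and -0.10 with lithium). In males the fluoxetine median was 0.07, and the other drug and sex medians were -0.11 to -0.08. Ctss, a lysosomal protease, was -0.08 ± 0.046, the chemokine receptor Cx3cr1 -0.09 ± 0.062 and the complement gene C1qb -0.11 ± 0.079. With a batch term the median was 0.07, and Cx3cr1 (0.05) and C1qb (0.01) changed sign, so the direction did not hold there. The summed microglia level ran from 14022 to 15220 in HT vehicle, 13064 to 16067 in HT fluoxetine, 12552 to 14646 in HT lithium and 12248 to 14939 in WT.

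All 10 meningeal fibroblast markers were above vehicle (median 0.19), 7 with both drugs, and all 5 tested red blood cell genes (median 0.22). The meningeal median was 0.10 without HT fluoxetine female 1, 0.11 without HT vehicle male 2 and 0.32 without HT vehicle male 3. Fmod and Igf2, meningeal genes, were 0.30 ± 0.18 and 0.25 ± 0.16, and Col1a2 reached 4193 in HT fluoxetine female 1 against 730.3 to 1162 in the other fluoxetine libraries. The globin gene Hba-a1 was 0.26 ± 0.15; its near-identical copy Hba-a2 (0.22 ± 0.13) can share its reads. Astrocyte markers had 12 of 14 higher (median 0.05), 9 of them with both drugs. Myelin markers had 11 of 14 higher for either drug (median 0.01), but only 2 with both drugs. Their median was -0.07 with fluoxetine and 0.11 with lithium, on opposite sides of vehicle. Excitatory neuron markers were 8 higher and 7 lower, inhibitory neuron markers 6 higher and 9 lower, and oligodendrocyte precursor markers 7 and 7. Endothelial markers were 8 higher and 6 lower. No member of these lists was called in limma, and their part in the values of the 24 genes was not tested.

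Striatal projection neuron markers had 11 of 12 members lower (median -0.40), all 11 with both drugs. The median was -0.02 without the 3 HT libraries high in Drd2 or Ttr, -0.03 without HT vehicle male 1 alone and -0.61 without HT vehicle female 2 or male 3. Drd2, a dopamine receptor gene, was at 1379 in HT vehicle male 1 and 16.1 to 112 in the other vehicle libraries. Choroid plexus markers had 2 of 6 tested members higher and 4 lower, with Ttr at 3407 in HT vehicle female 1 and 781 in HT fluoxetine female 2. Their median of -0.23 was 0.09 without HT vehicle female 1. Olfactory bulb markers had 13 of 14 higher (median 0.24), at 0.64 with fluoxetine and -0.09 with lithium; with a batch term the median was -0.29. Over single libraries left out it ran from -0.14 (without HT vehicle male 2) to 0.75 (without HT vehicle female 2), and it was also below 0 without HT lithium male 1 (-0.03) and HT vehicle female 3 (-0.0042). The values of the 24 genes without the bulb-high libraries ranged from 0.11 to 0.75 for the higher and from -0.64 to -0.19 for the lower.

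**Figure D4:**
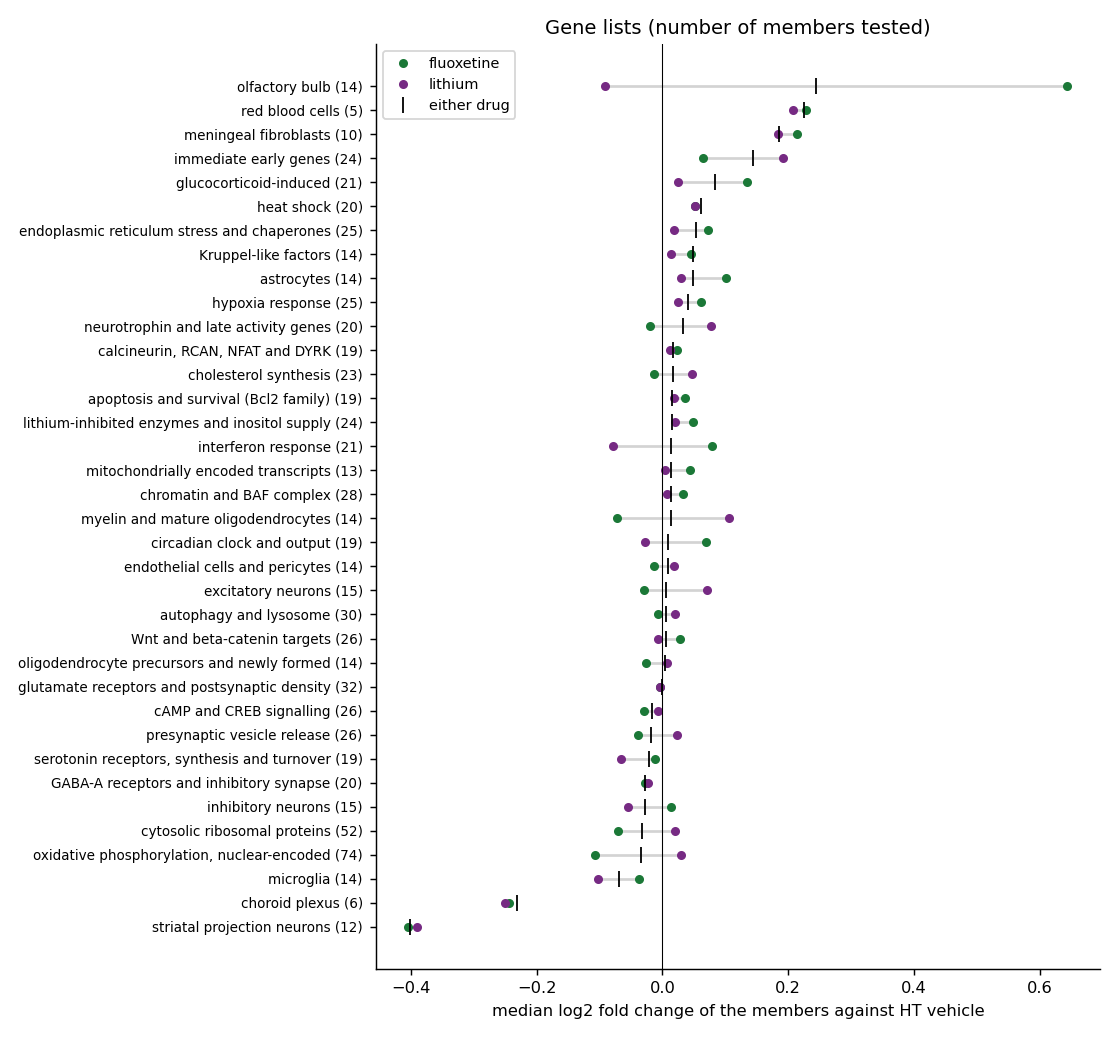
Median log2 fold change against HT vehicle (x axis) of each gene list (y axis, number of members tested in brackets) for fluoxetine (green), lithium (purple) and either drug (black tick). Olfactory bulb (0.64 and -0.09) and oxidative phosphorylation (-0.11 and 0.03) have the drugs on opposite sides of 0, and heat shock and glucocorticoid-induced genes have both above it.

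The largest fold changes in the either-drug comparison belonged to features listed at 0 in part of the libraries, chosen here after their values were seen. Gm12671, a processed pseudogene (ENSMUSG00000095937, chromosome 4, 91851668 to 91852669), was at 206, 243 and 42.9 in HT vehicle females and 178, 81.6 and 81.0 in HT vehicle males. It was listed at 0 in all 6 lithium libraries and 4 of 6 fluoxetine libraries, with 53.9 in HT fluoxetine female 1 and 316 in male 1. Eif4a-ps4, a pseudogene of the translation factor eIF4A, was listed at 0 in 4 of 6 HT vehicle libraries, with 539 and 1322 in the others. It stood between 372 and 952 in fluoxetine and between 246 and 1242 in lithium, while WT had 1 library at 0. Reads of such copies can be shared with their parent genes, and a value of 0 can be a failed estimate, so no fold is given.

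Gm28048, the gene called for lithium (adjusted p 0.00375, limma), and the ribosomal pseudogene Rpl15-ps3 were listed at 0 in all 7 libraries of batch P40_L2. These are the 6 lithium libraries and HT fluoxetine female 3. In P40_L1, Gm28048 ran from 87.9 to 171 in HT vehicle and from 25.4 to 139.5 in the other fluoxetine libraries, with WT male 1 at 0. Lithium and batch can be told apart for these features only through HT fluoxetine female 3, which was listed at 0 without lithium. The part of batch in the lithium call was not tested. With a batch term, and with edgeR, the lithium count was 0.

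**Figure D5:**
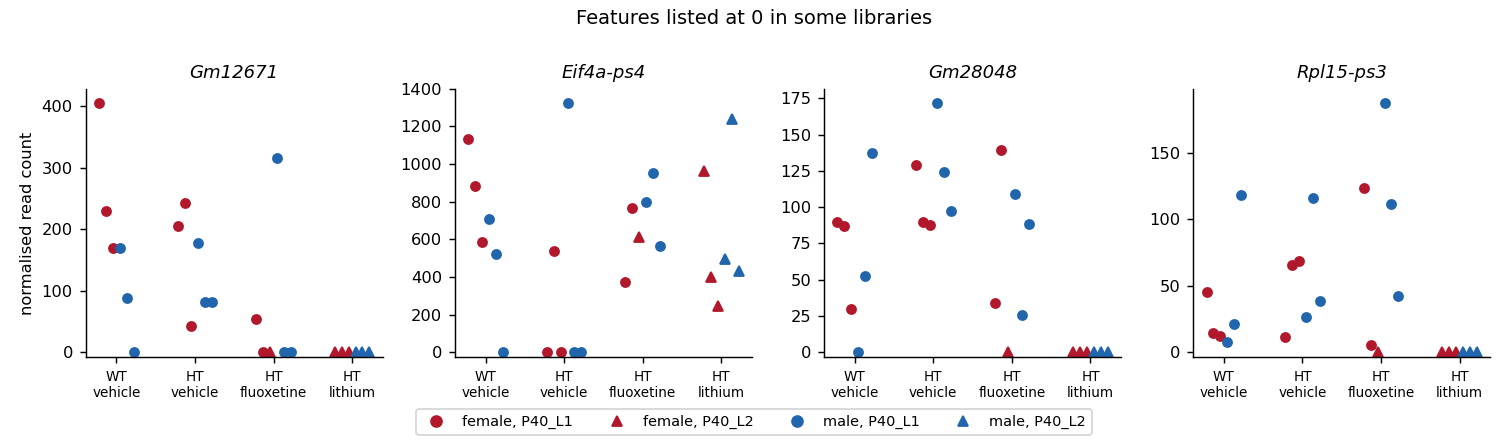
Normalised read count (y axis) in each library by arm (x axis) for 4 features listed at 0 in some libraries; colour gives sex and triangles mark batch P40_L2. Gm12671 is at 0 in all 6 lithium libraries, Eif4a-ps4 at 0 in 4 of 6 HT vehicle libraries, and Gm28048 and Rpl15-ps3 at 0 in all 7 P40_L2 libraries.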

How the data were processed

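Bulk RNA-seq of prefrontal cortex at postnatal day 40 was analysed for 18 HT libraries, with 6 WT libraries as a reference. The authors deposited one table of normalised read counts, a signal scale, for 18240 genes in 24 libraries. The submitters' processing notes name GRCm38, DESeq2 1.19.11, Salmon 0.11.2 and R 3.6.0, in no stated role or order. How reads were assigned to strands or gene copies is not given in the sources used here. In each column of the deposited signal the values were whole multiples of a single read's worth, within 0.01 of a read for 100% of values, and reads were recovered from these steps for count tests. In the column of HT vehicle female 2 a read is worth 0.997. Symbols and coordinates come from GENCODE M21 (18227 of 18240 identifiers).

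Models were fitted in R 4.3.3 by limma 3.58.1 (trend on mean level) to log2(count + 1), with arm and sex as terms, for 16811 genes with a mean of at least 10 (1429 left out). Adding a pseudocount of 1 shrinks the fold changes of scarce transcripts. Calls are Benjamini-Hochberg adjusted p under 0.05 over all genes tested. "Both drugs" took the larger of 2 p-values with equal sign. The sex difference used 6 group means, and differences from WT used all 24 libraries. On recovered reads, edgeR 4.0.16 and DESeq2 1.42.0 were alternatives. The steps were tested on simulated counts drawn independently for each gene and library. These held no batch or regional difference between libraries, so the test does not cover such differences. Bulb-high libraries have the highest olfactory bulb scores, and 3 HT libraries have the highest Drd2 or Ttr.

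Genes named are the 12 higher and 12 lower protein-coding genes with a symbol (no Gm or Rik models), equal sign and the smallest larger p, Dyrk1a, and the 3 members of smallest p of each list described. The members and the 36 lists (764 genes, 750 tested) were chosen with earlier results of these data known. All pairs of libraries differed by more than sampling noise (chi-square per gene at least 4.57).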

Additional observations from a re-analysis of the deposited data

Results flagged for a closer look

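For 84 named genes, each arm of 6 libraries was checked for a highest or lowest library set apart by a gap that was large against the arm's range (Dixon's 95% critical value). Chance flags about 5% of such groups; here 34 of 333 (10.2%) were, of which 8 were in HT lithium male 1, 6 in HT vehicle male 1, 5 in HT fluoxetine male 1 and 4 in WT male 3. All values are normalised read counts.

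Among the 24 leading genes, Slfn3 was low in HT vehicle female 1 (5.41, others from 8.59) and in HT lithium female 3 (11.2, others from 15.1). Nr4a3 was high in HT fluoxetine female 3 (1342, others to 1056), and Ube2t in HT fluoxetine male 1 (35.0, others to 28.5). Unc13c was high in HT vehicle male 1 (1322, others to 814), and Parvg was low in HT lithium male 1 (91.95, others from 118). In WT, Pcdhga4 was low in female 3 (407) and Ccdc122 in male 2 (20.97).

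In HT lithium male 1, a bulb-high library, the level was high for Crh (139.5), S100a10 (619), Marcksl1 (4284) and Tcf7l1 (172.5) and low for Maob (431), Cx3cr1 (1118) and Scn4b (844). In HT vehicle male 1 it was high for the striatal genes Drd2 (1379), Scn4b (10130.0) and Pde10a (7853) and for Nfatc2 (505) and Rpl38 (2744). In HT fluoxetine male 1 it was high for Klf4 (361), Dnajb5 (6768), Tph1 (37.1) and Gm12671 (316). Hspa5 was low in HT fluoxetine male 3 (4992), Col1a2 was high in HT fluoxetine female 1 (4193) and Drd2 in HT lithium female 1 (81.3).

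In WT libraries, male 3 was high for Ctss (1623), Igf2 (3381), Col1a2 (1119) and Rpl15-ps3 (118). WT female 2 was high for Marcks (4361) and Creb1 (1697), and WT female 1 for Drd2 (371).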

How the results depend on the processing

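Direction held for all 24 leading genes in every alternative that tested them (at least 30 per gene). The alternatives reuse all or most of the libraries that chose these genes, so a held direction was close to fixed. With a batch term their values ran from 0.06 to 0.64 (higher) and -0.93 to -0.03 (lower). Of these genes, Pcdhga4 and Btg2 were each called in at least 1 alternative. The counts of calls were: with DESeq2 5 for either drug, 11 for fluoxetine, 4 for lithium, 23 for lithium against fluoxetine and 1 for the sex difference; with edgeR 0 for lithium; with all 24 libraries 2 for fluoxetine, 2 for lithium and 4 for the drug difference; with a batch term 0 for lithium and 2 for the drug difference; with bulb score as covariate 7 for fluoxetine, 2 for lithium and 11 for the drug difference; after removal of the bulb-high libraries 1 for either drug, 1 for both and 1 for fluoxetine, Gm12671 in each; and without the libraries high in Drd2 or Ttr 0 for lithium. The bulb-high libraries included the only drug libraries in which Gm12671 was not listed at 0. Leaving out single libraries gave 0 to 1 calls for either drug, 0 to 2 for fluoxetine, 1 to 2 for lithium, 0 to 2 for the drug difference and 0 for both drugs and for the sex difference. The same-sign share of comparisons without a common library ran from 42.7% to 66.9% (fluoxetine females, lithium males) and from 35.1% to 64.0% (fluoxetine males, lithium females) as single libraries were left out. It was 53.0% in the second without the bulb-high libraries. With a batch term Rpl14 (0.0391), Pcsk1 (-0.0265), Cx3cr1 (0.0533), C1qb (0.00822) and Rpl15-ps3 (0.18) reversed, and Pgm1 (0.00434) did without the libraries high in Drd2 or Ttr. The causes were not tested. With the replicate number as a block the calls were 0 for either drug, 0 for both, 0 for fluoxetine, 1 for lithium, 0 for the drug difference and 0 for the sex difference. The numbers did not pair the libraries: over 18 same-numbered pairs the correlation ran from -0.70 to 0.73 (7 over 0.1), and 6 of 18 libraries correlated best with their own number.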
